A study of Mus musculus with 36 samples.

Results

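A set of 6 genes of the absorptive surface of the colon, Slc26a3, Slc9a3, Car1, Car2, Vil1 and Phgr1, was followed in a map of Ago2-bound RNA from colonic tumours of the mouse. The peaks described are all those, short stretches of RNA where reads from the pulldown pile up, for which the authors' annotation names one of the 6 genes, and they are called members below. There were 16 members among 7730 merged peaks, and the 6 genes were among 3933 genes named in the annotation. Vil1 had 6 peaks, Car2 had 3, Slc26a3, Slc9a3 and Car1 had 2 each, and Phgr1 had 1.

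The tumours came from C57BL/6 mice and fall into 2 genotypes. The group called WT here carried Halo-Ago2/+, Villin-CreER/+ and Apc fl/fl, and the group called G12D carried the same alleles plus K-Ras-G12D/+. Both groups therefore shared the tagged Ago2, the Cre and the loss of Apc, and differed in the K-Ras allele. The Villin promoter, which drives CreER in gut epithelium, belongs to Vil1, one of the 6 genes. Tumours were started at 8 to 12 weeks of age by a 4-hydroxytamoxifen enema at 5 mg/ml, were collected when animals were moribund, and were scraped tumour tissue that can hold cells other than tumour epithelium. The minced tissue of every tumour was crosslinked with UV light, 3 times at 400 mJ/cm2. There were 12 tumours, 6 of each genotype, in 2 batches of 3 WT and 3 G12D. Replicates 1 to 3 formed batch 1 and replicates 4 to 6 batch 2. Whether each replicate number stands for a separate mouse is not stated in the labels. The p-values describe the spread between these samples, which may be technical in part.

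Absorptive colonocytes line the upper crypt and surface of the colon and recover salt and water from the gut content. In their apical membrane a sodium/proton exchanger (Slc9a3) and a chloride/bicarbonate exchanger (Slc26a3) work side by side, and cytosolic carbonic anhydrases (Car1, Car2) supply the protons and bicarbonate that they exchange. Villin (Vil1) bundles the actin of the microvilli that carry these transporters, and Phgr1 encodes a small protein rich in proline, histidine and glycine found in gut epithelium. Ago2 holds a miRNA and is guided to RNA by pairing with the seed, bases 2 to 8 of the miRNA. In bulk tissue, fewer cells of a type and less RNA per cell cannot be told apart, and because input libraries were not analysed here a peak's signal mixes the amount of its RNA with its binding.

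Of the 16 peaks, 9 were annotated as exon (56.25%), 4 as 3′ UTR (25%) and 1 each as 5′ UTR, as intron and as an extended 3′ UTR class written utr3* in the annotation. Among all 7585 annotated peaks, 32.2% were exonic and 49.6% lay in 3′ UTRs. All 6 Vil1 peaks and both Car1 peaks were exonic, and the ninth exonic peak was Car2 peak 1. The peaks were 50 to 72 bases wide, with a median of 58 bases against 56 for all annotated peaks. Every one of the 16 lay within the RefSeq span of its gene on GRCm38, named a single gene, and overlapped no other RefSeq gene. None overlapped a RefSeq promoter window. The median gene had 1 peak, and 165 of 3933 genes (4.195%) had 6 or more, as Vil1 did.

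**Figure D1:**
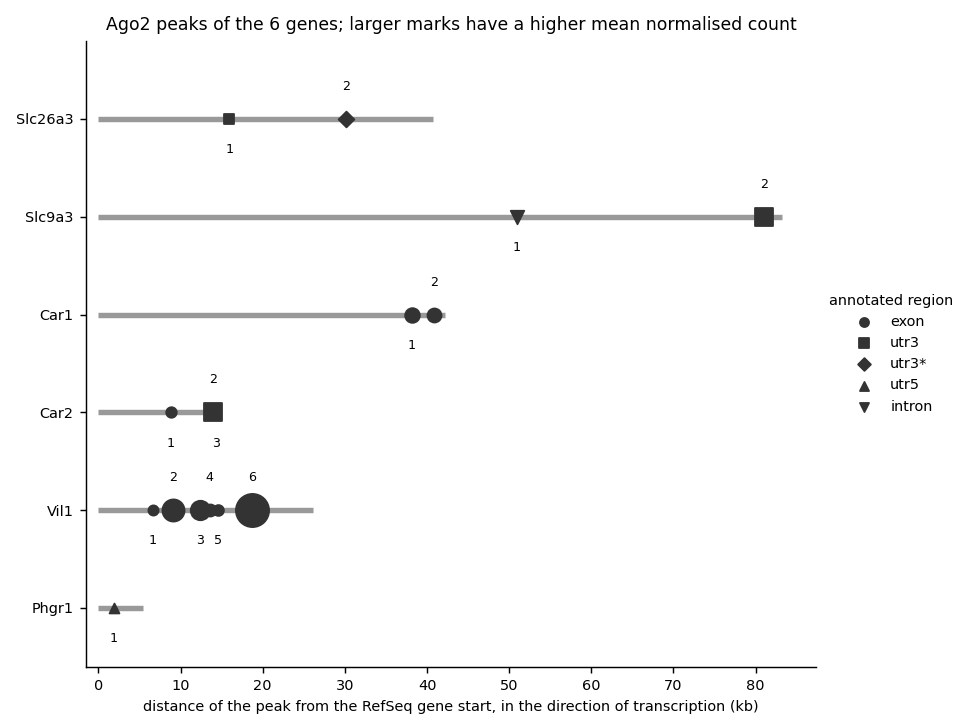
Position of each of the 16 peaks along its gene (horizontal axis, kb from the RefSeq gene start in the direction of transcription; grey bar, gene span). Mark shape gives the annotated region and mark area grows with the mean normalised count over 12 tumours. The 6 Vil1 peaks are all exonic and the last, peak 6, is the largest, while the strongest peaks of Slc9a3 and Car2 are in the 3′ UTR near the gene's end.

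The peaks are numbered along each gene in the direction of transcription. Vil1 peak 6, at chr1:74428116-74428173 on the plus strand, lay in an exon 7387 bases before the gene's end. The other Vil1 peaks lay upstream in the same gene, from chr1:74415970-74416041 (peak 1) to chr1:74423929-74423982 (peak 5). The 2 peaks of Car1, a gene on the minus strand, were at chr3:14770189-14770239 (peak 1) and chr3:14767404-14767458 (peak 2). Car2 lies close by on the plus strand, with peak 1 in an exon at chr3:14895078-14895141 and peaks 2 and 3 in the 3′ UTR at chr3:14900192-14900248 and chr3:14900607-14900672. Slc9a3 peak 1 was intronic, at chr13:74137168-74137221, and peak 2 was in the 3′ UTR at chr13:74167306-74167369. Slc26a3 peaks 1 and 2 were at chr12:31449087-31449141 and chr12:31463234-31463293. They are annotated as utr3 and utr3*, although they lay 24781 and 10629 bases before the RefSeq gene end. The single Phgr1 peak, at chr2:118774648-118774697, was called 5′ UTR and lay 1874 bases after the RefSeq gene start.

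The authors annotated each peak with the miRNA seed families whose sites it holds, graded from 8mer through 7mer to 6mer by the length of the match. At least 1 8mer or 7mer site was recorded in 14 of the 16 peaks (87.5%), against 76.0% of all annotated peaks, and an 8mer in 7 (43.75%), against 35.6%. Slc26a3 peak 1 and Car2 peak 3 held none of the listed sites. The mature sequences below (RefSeq, GRCm38.p6) belong to the most abundant miRNA of some of the families with 8mer or 7mer sites in member peaks. No sequence was matched for miR-23b-3p (family in Car2 peak 2), miR-151-3p (Car1 peak 2) or miR-375-3p (Car2 peak 1), so none is printed. Capitals mark the seed, bases 2 to 8.
let-7i-5p: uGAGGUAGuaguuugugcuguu
miR-196b-5p: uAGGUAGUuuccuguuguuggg
miR-194-5p: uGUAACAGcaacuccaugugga
miR-132-3p: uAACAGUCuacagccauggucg
miR-26a-5p: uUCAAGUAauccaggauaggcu
miR-362-5p: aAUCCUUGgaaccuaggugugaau
miR-501-5p: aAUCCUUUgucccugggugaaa
miR-27a-3p: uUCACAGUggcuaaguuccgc
miR-103-3p: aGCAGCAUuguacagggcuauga
miR-31-5p: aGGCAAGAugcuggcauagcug
miR-34a-5p: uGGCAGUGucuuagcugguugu
miR-29a-3p: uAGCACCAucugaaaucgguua
miR-18a-5p: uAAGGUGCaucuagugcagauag

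Let-7 was the family met most often: Slc9a3 peak 1 and Vil1 peak 5 held let-7 8mers and Vil1 peak 6 a let-7 7mer, and Car2 peak 2 held a 6mer. Let-7 8mer or 7mer sites stood in 10.27% of all annotated peaks. The let-7 and miR-196 seeds share the 6 bases AGGUAG, and the peaks with a let-7 8mer were also credited with miR-196 6mers, so the same bases can serve both calls. The seeds of miR-362-5p and miR-501-5p likewise share the 6 bases AUCCUU, and both families were credited to Car1 peak 2, next to an 8mer for miR-151-3p. Slc9a3 peak 2 and the Phgr1 peak both held a 7mer for miR-31-5p, a family with such sites in 1.16% of annotated peaks. Slc9a3 peak 2 held 7mers for miR-34 and miR-29 as well. In Vil1, peak 3 held 8mers for miR-194-5p and for miR-132-3p, peak 2 a 7mer for miR-196, and peak 1 7mers for miR-18 and miR-181c-3p. The seeds of miR-194-5p and miR-132-3p share the 5 bases AACAG, so the 2 8mers of peak 3 may overlap. In the carbonic anhydrases, Car1 peak 1 held a 7mer for miR-26, Car2 peak 1 held 8mers for miR-27 and miR-103, and Car2 peak 2 an 8mer for miR-23.

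Values are the authors' normalised counts, reads divided by 1 size factor per library. Where a peak is set against its whole library, its reads are given per 1000000 reads in all peaks (RPM). The mRNA libraries held between 30607 and 974013 reads in peaks. WT 5 and WT 6 stood apart, with 30607 and 57037 reads in peaks and 59.8% and 34.0% of all peaks at 0, where the other 10 libraries had 1.14 to 5.85%. One read was worth 4.53 normalised counts in WT 5 and 2.41 in WT 6, so low values there are coarse. Both shallow libraries are WT, so the fitted differences of the members are also given without them. The column names give model and number but not library type, and the columns were taken to be the mRNA libraries.

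Among the 6 genes, Vil1 carried by far the most Ago2-bound reads. Vil1 peak 6 alone supplied 53.4 to 70.0% of the gene's peak reads in each tumour and ranked between the 98.4th and 99.5th percentile of all peaks in every library. In the authors' list of peaks called for each genotype it ranked 22 of 7569 in G12D and 216 of 2186 in WT by their score. Its normalised count had a lowest value of 163.1, a median of 271.3 and a highest value of 614.8 in WT. In G12D the lowest value was 347.2, the median 688.5 and the highest 922.1. The ranges overlapped, with 5 of 6 G12D tumours above every WT tumour. Of 7527 tested peaks, 1586 (21.1%) had at least 4 G12D values above every WT value in normalised counts. As a share of the library the difference was smaller: WT tumours had 1384 ± 313.5 RPM and G12D tumours 1645 ± 278.9 (SD, n = 6 per genotype).

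The other 5 Vil1 peaks were weaker and of mixed pattern. Vil1 peak 2 ran from 40.77 through a median of 85.45 to 184.7 normalised counts in WT and from 99.54 through 248.0 to 357.3 in G12D, with 4 G12D tumours above all WT. Vil1 peak 3, the peak with the miR-194-5p and miR-132-3p sites, ran from 16.87 through 45.35 to 197.0 in WT and from 66.37 through 143.0 to 286.2 in G12D. Peaks 2 and 3 followed peak 6 in showing their highest values among batch 2 G12D tumours. Vil1 peak 1 was low throughout, between 0 and 9.06 in WT and between 8.515 and 28.46 in G12D, and 5 of 6 G12D values exceeded every WT value. At least 4 did so in 21.1% of tested peaks. Vil1 peak 4 ranged from 0 to 30.19 in WT and from 9.259 to 87.32 in G12D, its highest values being those of G12D 1 and G12D 2. Vil1 peak 5, with the let-7 8mer, ranged from 2.41 to 20.24 in WT and from 13.03 to 29.80 in G12D. Summed over its peaks, Vil1 came to 532.9 ± 296.4 normalised counts (SD) over the 6 WT tumours, to 654.4 ± 293.3 over WT 1 to 4 and to 1159 ± 367.3 over the 6 G12D tumours.

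The carbonic anhydrase Car1 held the peak with the highest fitted difference of the members over all 12 tumours, although the ratio of the group means in normalised counts, 4.58, was below that of Phgr1, 5.13. Car1 peak 2 ran from 0 (WT 5 and WT 6) through a median of 14.82 to 29.13 normalised counts in WT, and from 27.78 through 61.26 to 108.3 in G12D. In all, 5 of the G12D values lay above all WT values, and G12D 3 lay just under the highest WT value. In RPM the observed values did not overlap: WT ran from 0 to 91.96 and G12D from 95.71 to 215.6. The lowest G12D value, in G12D 3, rested on 12 reads and the highest WT value, in WT 2, on 15. A count of 0 allows up to 98.0 RPM in WT 5 and 52.6 in WT 6, so the separation in RPM is not secure. Of 7527 tested peaks, 43 (0.571%) had every G12D value above every WT value in RPM, and 128 (1.7%) in normalised counts. In normalised counts, 1586 (21.1%) had at least 4 G12D values above every WT value. Car1 peak 1, in the same transcript and with the miR-26 site, followed another pattern. It reached 120.1 in G12D 1 and 181.1 in G12D 2 but only 13.48 to 39.71 in the other 4 G12D tumours, against 2.41 to 57.03 in WT, so the groups overlapped widely. The sum of both Car1 peaks was 39.77 ± 33.98 normalised counts in WT, 57.91 ± 24.63 over WT 1 to 4, and 135.3 ± 68.59 in G12D (mean and SD).

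Car2 was carried by its 3′ UTR peak with the miR-23 8mer, peak 2, which made up 79.55% of the gene's reads. Car2 peak 2 ran from 9.64 through a median of 57.51 to 85.24 normalised counts in WT and from 56 through 137.1 to 248.7 in G12D. G12D 3 and the 3 G12D tumours of batch 2 lay above every WT tumour, while G12D 1 and 2 lay within the WT range. At least 4 G12D tumours lay above every WT tumour for 21.1% of tested peaks. Car2 peak 1 was low, from 0 to 30.31 in WT and from 10.83 to 25.57 in G12D. Car2 peak 3, with none of the listed seed sites, ran from 0 to 24.62 in WT and from 7.237 to 20.83 in G12D, and neither of these 2 peaks had a G12D value above all WT values. The Car2 sum averaged 75.50 ± 44.92 in WT, 99.52 ± 29.05 over WT 1 to 4, and 178.5 ± 77.25 in G12D (SD).

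**Figure D2:**
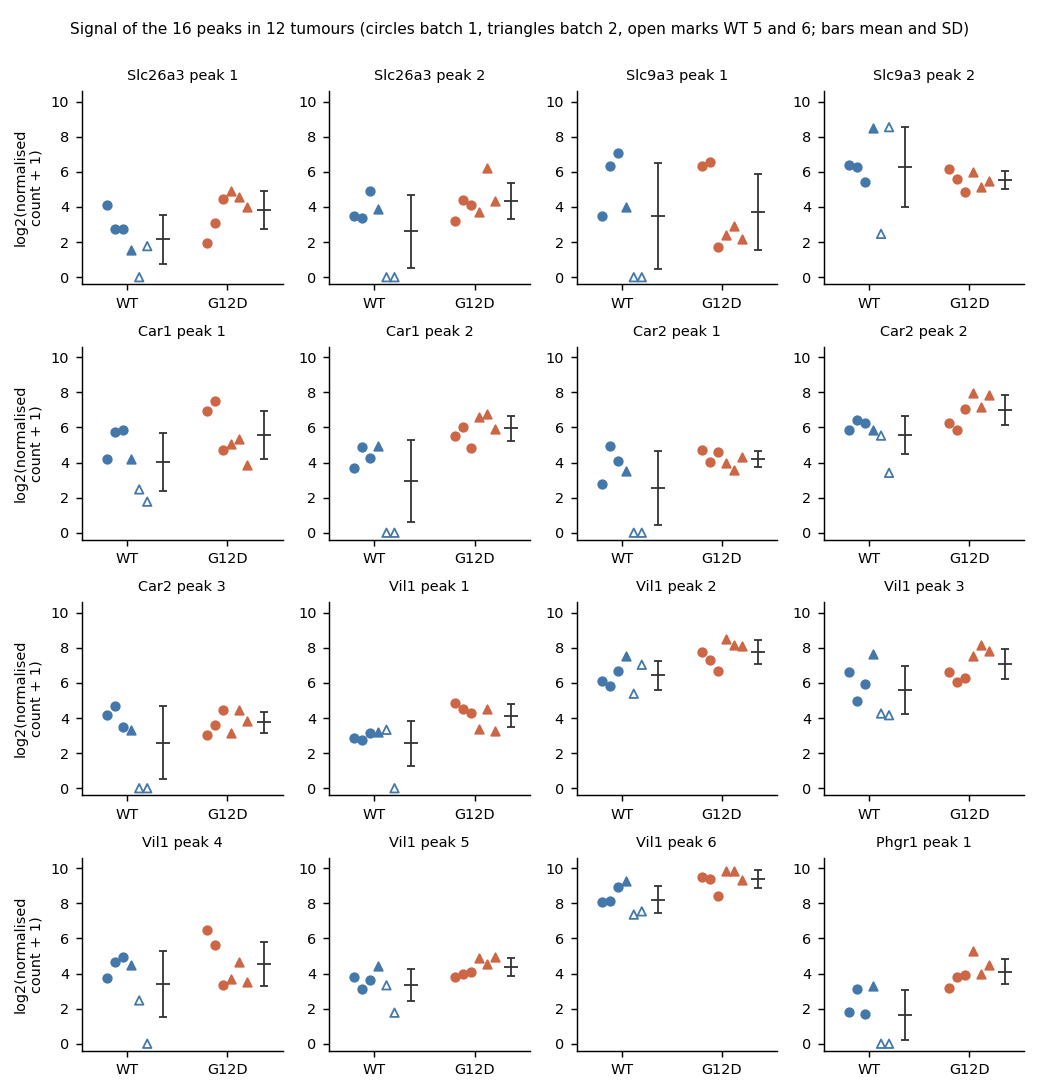
Normalised count of each of the 16 peaks in each tumour (vertical axis, log2 of the count plus 1; circles batch 1, triangles batch 2, open marks the shallow libraries WT 5 and 6; bar, mean and SD, n = 6). Slc9a3 peak 2 has 2 WT tumours, WT 4 and WT 6, far above the G12D range, Car1 peak 2 has 5 G12D tumours above all WT, and Slc9a3 peak 1 splits both genotypes.

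The sodium/proton exchanger Slc9a3 was the member gene with a lower mean in G12D than in WT. Slc9a3 peak 2, the 3′ UTR peak with miR-34, miR-29 and miR-31 sites, ran from 4.53 through a median of 81.15 to 373.6 normalised counts in WT, and from 27.78 through 45.85 to 69.47 in G12D. The WT values were uneven: WT 4 with 364.4 and WT 6 with 373.6 lay far above the next at 84.65, WT 5 had a single read, and WT 3 lay inside the G12D range. Slc9a3 peak 1, the intronic let-7 peak, was high in 4 tumours of batch 1, with 79.56 in WT 2, 133.1 in WT 3, 78.64 in G12D 1 and 93.33 in G12D 2. It was 0 to 14.81 in the other 4 WT tumours and 2.315 to 6.704 in the other 4 G12D tumours, and the 2 genotypes overlapped. Summed over both peaks, Slc9a3 came to 902.6 ± 941.0 RPM over the 6 WT tumours and to 199.5 ± 149.1 over the 6 G12D tumours (means with SD). WT 5 held 1 Slc9a3 read. Against WT 1 to 4, at 508.9 to 997.1 RPM, all 6 G12D tumours were lower, at 81.11 to 403.0. Of 3897 tested genes, 25 (0.642%) had every G12D value in RPM below those 4 WT tumours. In normalised counts the sum averaged 197.3 ± 151.0 in WT and 79.03 ± 52.19 in G12D, and the groups overlapped. G12D 1 at 148.1 and G12D 2 at 141.0 lay above WT 1 at 94.92, and WT 5, at 4.53, lay below every G12D tumour.

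Slc26a3, the chloride/bicarbonate exchanger, had little signal. Peak 1 ran from 0 through a median of 4.001 to 16.15 normalised counts in WT and from 2.895 through 17.87 to 29.06 in G12D. Peak 2 ran from 0 through 9.873 to 29.08 in WT and from 8.201 through 17.68 to 74.26 in G12D, the highest value coming from G12D 5 alone. The sum of both came to 15.74 ± 13.40 for WT and 41.30 ± 29.21 for G12D (mean and SD of 6 tumours), or 63.54 ± 59.73 and 96.74 ± 56.66 RPM, and the ranges overlapped on both scales. Over WT 1 to 4 the mean was 23.01 ± 9.33 normalised counts, or 90.93 ± 53.80 RPM.

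Phgr1 had the lowest mean of the 6 genes. Its peak ran from 0 (WT 5 and WT 6) through a median of 2.342 to 8.888 normalised counts in WT, and from 8.201 through 14.16 to 37.61 in G12D. Of the G12D tumours, 5 of 6 lay above every WT tumour, and G12D 1 lay below WT 4. For 21.1% of tested peaks at least 4 G12D tumours lay above every WT tumour. The peak rested on 2 to 18 reads in WT 1 to 4 and 6 to 44 reads in G12D. A count of 0 allows up to 98.0 RPM in WT 5 and 52.6 in WT 6, which spans most of the G12D range of 20.97 to 70.02. Such limits cover counting error only.

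**Figure D3:**
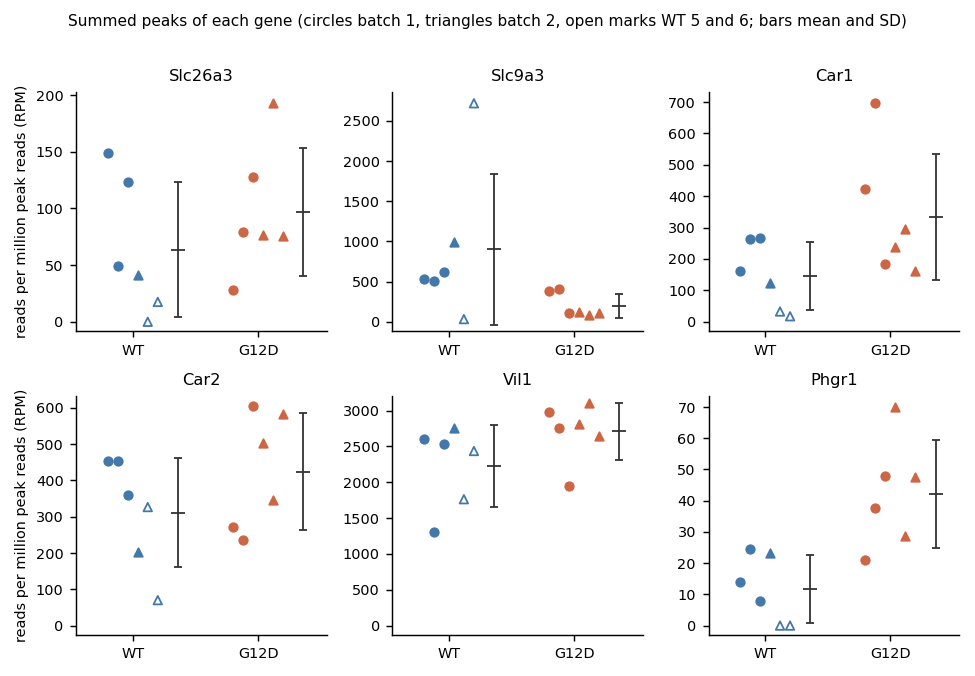
Summed peaks of each gene in RPM (vertical axis, linear; circles batch 1, triangles batch 2, open marks WT 5 and 6; bar, mean and SD, n = 6). Slc9a3 is at 81.11 to 403.0 in G12D and at 508.9 to 997.1 in WT 1 to 4, with WT 5 near 0 and WT 6 at 2718, while Vil1 overlaps between genotypes.

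Summed over all 16 peaks, the members' share of the library averaged 3665 ± 1123 RPM for WT and 3806 ± 437.4 for G12D (SD over 6 tumours). The same sum in normalised counts was 864.7 ± 431.1 and 1611 ± 432.5. Differences between genotypes are given both as fitted and relative to the median of all tested peaks.

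The 2 genotypes were compared with limma on log2 values (normalised count plus 1) with batch as a covariate, over 7527 peaks with a mean of at least 5, all 16 members among them. No peak passed a Benjamini-Hochberg adjusted p of 0.05 (0% called), members included. At an unadjusted p under 0.05, 2700 peaks (35.9%) were higher in G12D and 13 (0.173%) lower. The members' 11 of 16 at that level, all higher, stand beside that 35.9%. The fitted log2 fold change was above 0 for 15 of 16 members and for 96.1% of all tested peaks. The median was 1.47 over the members and 1.33 over all peaks, and 9 of 16 members were above the median of all.

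Car1 peak 2 had the largest fitted log2 fold change of the members, 2.99 (SE 0.84, adjusted p = 0.108, limma), 1.66 above the median of all peaks (95% interval -0.06 to 3.39). It stood at the 99.6th percentile of tested peaks. The Phgr1 peak followed at 2.46 (SE 0.74, adjusted p = 0.108, limma), 1.13 above the median (interval -0.40 to 2.66). Both peaks stood in the G12D list only, as did 71.9% of all annotated peaks. They entered through the group where they were higher, which can raise their fitted differences. At the other end, Slc9a3 peak 2 had -0.74 (SE 0.81, adjusted p = 0.432, limma), which is -2.07 relative to the median (interval -3.74 to -0.40) and the 0.824th percentile. Slc9a3 peak 1 had 0.21 (SE 0.91), -1.12 relative to the median (interval -2.99 to 0.75). The other 12 members lay between -0.29 and 0.39 relative to the median, close to the change of peaks in general. Vil1 peak 6, with 1.17 (SE 0.54), was -0.16 relative to the median.

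**Figure D4:**
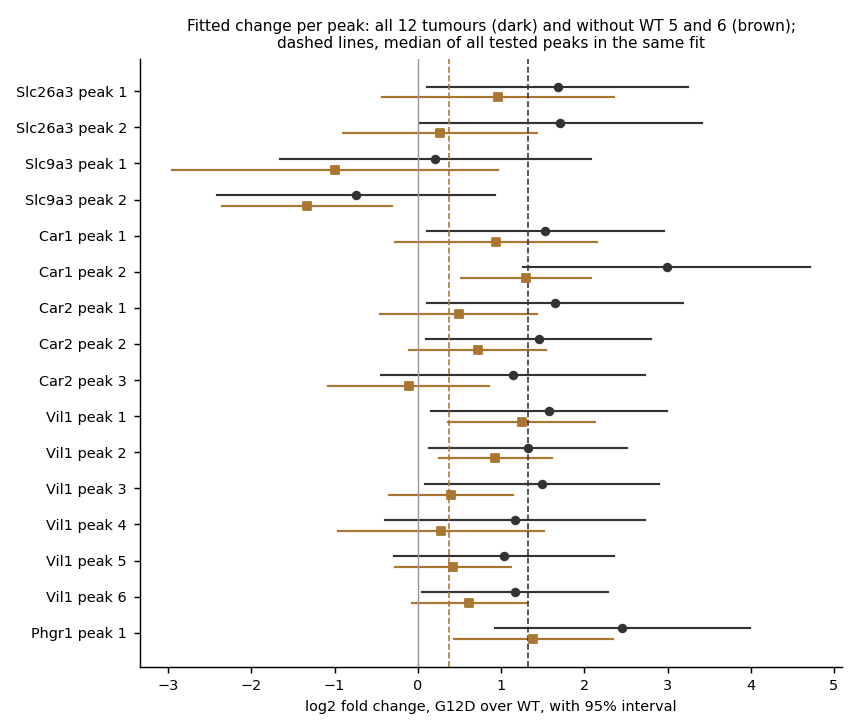
Fitted log2 fold change of each peak (horizontal axis, G12D over WT; point and 95% interval, limma) with all 12 tumours (dark circles) and without WT 5 and 6 (brown squares). Dashed lines mark the median of all tested peaks in each fit, 1.33 and 0.38; Car1 peak 2 and Phgr1 lie to the right of both lines and the Slc9a3 peaks to the left.

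Leaving out the 2 shallow WT libraries lowered the median of all peaks from 1.33 to 0.38 and shrank most member values. Car1 peak 2 then had 1.30 (SE 0.36), Phgr1 1.38 (SE 0.44) and Vil1 peak 1 1.25 (SE 0.41), with adjusted p of 0.178, 0.203 and 0.210 (limma). Slc9a3 peak 2 had -1.33 (SE 0.48, adjusted p = 0.232, limma), still the lowest member. Slc9a3 peak 1 and Car2 peak 3 turned to -1.0 and -0.11. The fit without WT 4 went the other way: 3391 peaks (45.1%) were called higher and 13 lower, and 9 of 16 members were called, all higher.

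On sums of peaks per gene, over 3897 genes, none was called (1665 genes, 42.7%, higher and 11, 0.282%, lower at an unadjusted p under 0.05). The fitted log2 fold change was 2.46 for Phgr1 (SE 0.73), 2.37 for Car1 (SE 0.72), 1.84 for Slc26a3 (SE 0.82), 1.46 for Car2 (SE 0.63), 1.22 for Vil1 (SE 0.48) and -0.76 for Slc9a3 (SE 0.84). Against the median of all genes, 1.37, this places Phgr1 and Car1 about 1 log2 unit above (1.09 and 1.00), Vil1 at -0.15 and Slc9a3 at -2.13. The members' adjusted p ran from 0.0974 to 0.420 (limma). Without WT 5 and 6 the values were 1.38 for Phgr1, 1.21 for Car1, 0.65 for Vil1, 0.62 for Car2, 0.49 for Slc26a3 and -1.41 for Slc9a3, around a median of 0.44 over all genes. Relative to that median, Slc26a3 went from 0.47 to 0.05, Vil1 from -0.15 to 0.21, Car1 from 1.00 to 0.76 and Slc9a3 from -2.13 to -1.85. Without WT 4, 5 of the 6 gene sums were called higher, all but Slc9a3, among 2189 genes (56.2%) called higher.

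Count models on the recovered reads differed from limma in their calls. DESeq2 with the authors' scaling called 760 peaks higher (10.1%) and 27 lower (0.359%), and 4 members were among the higher: Phgr1 (adjusted p = 0.0120), Car1 peak 2 (0.0174), Vil1 peak 1 (0.0324) and Vil1 peak 2 (0.0459). The authors' deposited table gives the same 4 members an adjusted p under 0.05, with 0.0121, 0.0179, 0.0326 and 0.0461, and calls 9.85% of peaks higher and 0.321% lower. Of these 4 members, all but Vil1 peak 2 stood in the G12D list only. With DESeq2's own size factors, 44 peaks were called higher (0.585%) and 79 lower (1.05%), with an adjusted p given for 4295 of the 7527. Under those factors Car1 peak 2 was called higher (log2 fold change 1.27, adjusted p = 0.0440, DESeq2) and Slc9a3 peak 2 lower (-2.53, adjusted p = 0.0182, DESeq2). Without WT 5 and 6, DESeq2 with the authors' scaling called 1 member, Car1 peak 2 (1.44, adjusted p = 0.0181), against 2.11% of peaks called higher and 0.159% lower. On gene sums that setting called Car1, beside 6.59% of genes higher and 0.308% lower. edgeR called no member under either scaling. With limma and a pseudocount of 5, 2 members were called higher (Car1 peak 2 and Phgr1), beside 6.72% of all peaks higher and 0.093% lower. With library quality weights 5 members were called higher, beside 10.8% of peaks higher and 0.505% lower. For gene sums, DESeq2 with the authors' scaling called Car1 and Phgr1 higher, beside 15.4% of genes higher and 0.565% lower, and with its own factors it called Slc9a3 lower, beside 0.642% higher and 1.54% lower. A pseudocount of 5 called the same 2 gene sums beside 9.6% of genes higher and 0.18% lower, and quality weights called 3 (Car1, Vil1 and Phgr1) beside 14.4% and 0.616%.

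Batch 2 holds both shallow libraries. There, the fitted difference was more upward than in batch 1 for the median of all peaks and for 14 of 16 members. The exceptions were Slc9a3 peak 2 and Vil1 peak 1, whose batch 2 values were lower than those of batch 1 by 0.46 and 0.11 on the log2 scale. The median difference between batches over all peaks was 1.79, and it was -0.17 without WT 5 and 6. The median fold change of all peaks was 0.44 in batch 1 and 2.24 in batch 2. Car1 peak 2 had 1.19 in batch 1 (SE 0.52) and 4.79 in batch 2 (SE 1.31), and was called in batch 2 (adjusted p = 0.0288, limma), where 3.11% of peaks were called higher. Phgr1 had 1.45 (SE 0.57) and 3.46 (SE 1.39). Slc9a3 peak 2 was lower in G12D in both batches, at -0.51 (SE 0.52) and -0.97 (SE 1.13). The Slc26a3 sum had -0.09 (SE 0.54) in batch 1 and 3.77 (SE 1.39) in batch 2. A test of genotype by batch called 3 of 7527 peaks (0.0399%), none of them a member, with the lowest member adjusted p at 0.369 (limma).

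Turning to the miRNAs, of 284 tested miRNAs, 5 (1.76%) rose and 6 (2.11%) fell in G12D at an adjusted p of 0.05 (limma). For the 30 seed families annotated in member peaks, the most abundant miRNA of each was examined, and 1 of the 30 was called. It was miR-218-5p, at 160.5 ± 17.2 normalised counts over the WT tumours against 314.6 ± 77.7 over the G12D tumours (SD, n = 6 per genotype), a log2 fold change of 0.93 (SE 0.17, adjusted p = 0.0112, limma). All 6 G12D values lay above all WT values, as for 3 of 284 miRNAs (1.06%). Its site in a member is a 6mer in Car2 peak 1. miR-18a-5p, with a 7mer in Vil1 peak 1, had 1145 ± 187.9 in WT and 1501 ± 71.9 in G12D without overlap, a log2 fold change of 0.41 (SE 0.11, adjusted p = 0.0572, limma; 0.0104 by DESeq2). DESeq2 called 3.52% of miRNAs higher and 5.99% lower.

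Of the 29 other tested miRNAs of these families, 2 were called higher and 1 lower, and these 3 are named because they were called. miR-23a-3p, whose family has the 8mer in Car2 peak 2, had 1895 ± 133.7 normalised counts in WT and 2755 ± 648.8 in G12D (mean and SD), with a log2 fold change of 0.51 (SE 0.11, adjusted p = 0.0189, limma). miR-193a-3p, of a family with a 7mer in Slc26a3 peak 2, had 38.29 ± 9.46 and 103.5 ± 51.41, with a log2 fold change of 1.27 (SE 0.32, adjusted p = 0.0444, limma), and was called in 4 of 17 alternatives. For each of these 2 miRNAs, 5 of the G12D values exceeded the highest WT value, a count not taken over all miRNAs. The most abundant miRNAs of the 2 families were not called. miR-23b-3p had a log2 fold change of 0.43 (SE 0.27, adjusted p = 0.439, limma), and miR-193b-3p had 0.43 (SE 0.29, adjusted p = 0.486, limma). miR-449a-5p, which shares the miR-34 site in Slc9a3 peak 2, had 239.8 ± 122.2 in WT and 82.13 ± 20.78 in G12D, with a log2 fold change of -1.43 (SE 0.28, adjusted p = 0.0158, limma). All 6 G12D values lay below all WT values, as for 3 of 284 miRNAs (1.06%). The most abundant miRNA of that family, miR-34a-5p, had 6561 ± 791.6 in WT and 6154 ± 1075 in G12D. Its log2 fold change was -0.10 (SE 0.10, adjusted p = 0.634, limma).

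miR-132-3p, whose 8mer stands in Vil1 peak 3, averaged 470.5 ± 182.9 normalised counts for WT against 222.2 ± 43.9 for G12D (SD over 6 tumours). The ranges overlapped, at 239 to 732.5 in WT and 175.8 to 277.3 in G12D. Its log2 fold change was -1.0 (SE 0.26, adjusted p = 0.0521, limma; 0.00168 by DESeq2). miR-31-5p, with sites in Slc9a3 peak 2 and Phgr1, varied widely within genotypes, from 1444 to 7835 in WT and from 1690 to 5934 in G12D (log2 fold change -0.61, SE 0.42, adjusted p = 0.489, limma). The 2 peaks with its sites differed from each other in their fitted changes, as given above. Among the abundant miRNAs of the families, let-7i-5p averaged 5630 ± 503.6 for WT against 5502 ± 554.5 for G12D, and miR-194-5p 12780 ± 1259 against 13400 ± 1027. miR-196b-5p had 11920 ± 1742 and 12470 ± 2111. Their 95% intervals for the log2 difference were -0.18 to 0.11, -0.10 to 0.24 and -0.14 to 0.27.

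Other genes of related functions were read from lists chosen by function. Of 26 genes of ion and water transport, a list not limited to absorption, 13 had peaks and were tested. None was called (0% of all genes called). The median log2 fold change of the 13 was 0.02 relative to all genes, with 7 of 13 above the median of all. Among the strongest were Atp1b1, a subunit of the sodium pump, and Slc12a2, a sodium, potassium and chloride cotransporter of the basolateral side. Of 21 brush border and microvillus genes 12 were tested, led by the membrane mucins Muc3 and Muc13 and the cadherin Cdh17, with a median of 0.09 relative to all genes and 7 of 12 above. Of 20 colonocyte differentiation genes 15 were tested, led by Lypd8, Krt20 and Ceacam1, with a median of -0.03 and 7 of 15 above. DESeq2 with the authors' scaling called 4, 4 and 1 genes of these lists higher and none lower, where it called 15.4% of all genes higher. Without WT 5 and 6 the 3 medians were 0.04, 0.10 and 0.02. The median of each of these 3 lists lay between the values of Car1 and Slc9a3.

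Lists for other cell types were read in the same way. Of 14 goblet and secretory genes, 10 were tested, none was called, and none was above the median of all genes (median -0.58 relative to all genes, and -0.85 without WT 5 and 6). Of 15 crypt and stem genes 12 were tested, with a median of -1.0 and 3 of 12 above, and a median of -0.36 without WT 5 and 6. DESeq2 with the authors' scaling called 3 crypt and stem genes higher and none lower, where it called 15.4% of all genes higher. The 3 were Cd44, Ephb2 and Myc (named after their values were seen), and no goblet gene was called. Summed peaks of the whole lists ranged from 2352 to 31940 RPM for goblet genes in WT and from 7932 to 20280 in G12D. For crypt genes they ranged from 5150 to 10550 and from 7463 to 17680. Peaks were found for 2 of 18 leukocyte genes (Igha, H2-Eb1) and 3 of 13 fibroblast and smooth muscle genes (Col1a1, Col1a2, Col3a1). Of 10 endothelium and nerve genes 1 had a peak (Ret). Ptprc, Vim and Pecam1 had none. The Igha sum averaged 310.1 normalised counts in WT and 658.6 in G12D, and the Col1a1 sum 128.1 and 303.5. Both lay above the Car1 sum, at 39.77 and 135.3. Summed levels were 359.4 to 2232 RPM in WT and 572.9 to 4257 in G12D for the leukocyte list, and 130.7 to 1786 and 603.2 to 1702 for the fibroblast list. The part of goblet, crypt or other cells in the members' differences was not tested.

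The genes most like a member across tumours were found by Pearson correlation of log2 RPM over the 10 libraries other than WT 5 and 6, among 2620 genes. The libraries share depth and batch, and the values are descriptions. Slc9a3 was most like Ifitm3 (r = 0.907) and the goblet and secretory genes Agr2 (0.906) and Reg4 (0.896). Among the other 5 members its highest correlation was -0.004, with Car1, and its lowest -0.688, with Phgr1. Vil1 was most like Stk10 (0.966), Car1 like Dock5 (0.894), Car2 like Ibtk (0.882) and Phgr1 like Rnpepl1 (0.897). No pair of the 6 members had a correlation above 0.415 (Slc26a3 and Car2) over these 10 libraries. Over all 12 libraries the values differed: Car1 and Phgr1 had 0.816, Slc26a3 and Phgr1 0.735, and Slc26a3 and Car1 0.641, against 0.018, -0.082 and -0.116 over the 10. The nearest genes changed likewise, to 0.214 for Phgr1 with Rnpepl1 and 0.342 for Car2 with Ibtk, while Slc9a3 had 0.957 with Ifitm3, 0.883 with Agr2 and 0.687 with Reg4.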

How the data were processed

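Ago2-bound RNA was read from 36 libraries, 3 per tumour (miRNA, mRNA and input). The peak and miRNA tables hold signal values, that is, reads divided by a size factor for each library, as deposited by the authors. Whole reads were recovered for 100% of values within 0.001 reads. The submitters' processing notes name the aligner STAR (2.5.2b), DESeq2, mm10 and GRCm38 but give none of them a role, and the peak caller was not named in any source used here. The authors' deposited table also holds their log2 fold changes and adjusted p-values, and the peak lists, 1 per genotype, a score of unstated unit per the file headers, used only for ranks. Gene names, regions and seed sites are the authors' annotation. Input libraries were not analysed here.

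Differences were tested with limma 3.58.1 in R 4.3.3, fitting genotype and batch to log2(value + 1). Peaks and gene sums needed a mean of 5 or more and miRNAs of 10 or more. The Benjamini-Hochberg threshold was 0.05. With 0.5, 1 and 5 added, the median log2 fold change of all peaks was 1.50, 1.33 and 0.88. DESeq2 with the authors' scaling gave a median of 0.86, below that of limma with 1 added. The deposited log2 fold changes of Car1 peak 2 and Phgr1, 2.045 and 2.005, were likewise below those fitted by limma. edgeR 4.0.16 and DESeq2 1.42.0 on recovered reads were alternatives. Scripts were tested on simulated data. A relative value is a log2 fold change minus the median of all tested features, and its interval treats that median as fixed. No pairing of the tumours by replicate number was seen. Named features are all member peaks, the 3 genes of each list with the highest mean, the 3 most like each member (mean of at least 20) and the most abundant miRNA of each seed family. A few features that this rule names are not reported here. Members and lists were chosen with earlier results of these data known.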

Additional observations from a re-analysis of the deposited data

Results flagged for a closer look

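In 42 groups of 6 values examined for a single value far from the rest (16 peaks and the gene sums, per genotype; chance alone marks about 1 in 20), 4 stood out. The highest WT value of Slc26a3 peak 1 was 16.15 normalised counts in WT 1, with the next at 5.683. For Slc26a3 peak 2, G12D 5 had 74.26 against 20.05 for the next tumour, and the same tumour stood out in the sum of both Slc26a3 peaks with 96.95 against 41.03. Vil1 peak 1 was 0 in WT 6, the lowest WT value, against 5.683 for the next.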

How the results depend on the processing

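Counts of calls depended on scaling and tool. No peak or gene sum was called by limma with all tumours, and the same held for a pseudocount of 0.5, other filters, RPM, TMM factors, no batch term and batch 1 alone. Peaks called higher and lower were 506 and 7 with a pseudocount of 5, 4 and 6 with edgeR, 1 and 11 with edgeR and TMM, 760 and 27 with DESeq2, 44 and 79 with DESeq2's own factors, and 815 and 38 with library quality weights. They were 234 and 0 in batch 2 alone and 3 and 0 without WT 5 and 6. RPM without WT 5 and 6 gave 1 and 3, and DESeq2 without them 159 and 12 (both settings chosen after seeing the data). Gene sums called were 374 and 7, 6 and 4, 2 and 10, 600 and 22, 25 and 60, 562 and 24, 14 and 0, 42 and 5, 0 and 3, and 257 and 12 in the same order. Member peaks called higher numbered 2 with a pseudocount of 5 (Car1 peak 2, Phgr1), 4 with DESeq2, 1 with its own factors (and 1 lower), 5 with quality weights, 1 in batch 2 alone and 1 with DESeq2 without WT 5 and 6. Member genes numbered 2, 2, 0 (and 1 lower, Slc9a3), 3, 0 and 1. The cause of these differences was not tested.

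Leaving out 1 library in turn gave 0 to 3391 peaks higher and 0 to 13 lower, 0 to 2189 gene sums higher and 0 to 10 lower, and 0 to 9 member peaks and 0 to 5 member genes higher. All calls in these ranges came without WT 4. miRNAs called ranged from 1 to 5 higher and from 4 to 11 lower, and family miRNAs from 1 to 2 higher and 0 to 1 lower. With DESeq2, 10 miRNAs rose and 17 fell (family miRNAs 2 and 1), and without a batch term 3 and 3. The genotype by batch test called 3 peaks, 0 without WT 5 and 6 and 5 with a pseudocount of 5.

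Directions turned for 7 member peaks and 1 gene sum, including some well above 0 with all tumours (Slc26a3 peaks 1 and 2 at 1.68 and 1.71 and their sum at 1.84, Vil1 peak 3 at 1.49, Car2 peak 3 at 1.14). Slc9a3 peak 1 was -0.11 with a pseudocount of 5, -0.23 with TMM, -0.40 and -0.92 with edgeR and edgeR with TMM, -0.37 and -0.95 with DESeq2 and its own factors, -0.46 with quality weights, -0.76 in batch 1, -1.0 without WT 5 and 6, -1.51 in RPM and -0.76 by DESeq2 without them. Leaving out single libraries moved it between -0.19 and 1.015. Car2 peak 3 was -0.28 (edgeR, TMM), -0.25 (DESeq2, own factors), -0.063 (quality weights), -0.41 (batch 1), -0.11 without WT 5 and 6, and -0.54 in RPM and -0.10 by DESeq2 without them. Vil1 peak 5 was -0.018 with edgeR and TMM and -0.074 with DESeq2's own factors. Slc26a3 peak 1 was -0.015 in batch 1. Slc26a3 peak 2 was -0.10 with quality weights, -0.031 in batch 1 and -0.15 in RPM without WT 5 and 6. The Slc26a3 sum was -0.087 in batch 1. Vil1 peaks 3 and 4 were -0.028 and -0.15 in RPM without WT 5 and 6.

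With a replicate block, 0 peaks and 0 gene sums were called, and 1 miRNA rose and 5 fell, with miR-132-3p called lower (log2 fold change -1.0, adjusted p = 0.0284, limma) and miR-23a-3p and miR-193a-3p no longer called (0.0516 and 0.0589). Over their alternatives the adjusted p ran from 0.000836 to 0.107 and from 0.00127 to 0.106, and for miR-449a-5p, called in all 17, from 1.29e-05 to 0.0460. No pairing by number was seen: same-numbered libraries deviated from the fit with correlations of -0.62 to -0.02 for peaks and -0.25 to 0.12 for miRNAs. No WT library correlated best with the G12D library of its own number. Because the libraries differ in depth, this check cannot exclude a shared origin. Relative to all genes, Slc9a3 stayed below the median in all 32 alternatives (-3.08 to -1.17). Car1 (0.69 to 1.30) stayed above it in 31 and Phgr1 (0.44 to 1.85) in 30, all that gave them a value. The fit limited to peaks in both genotypes' lists gave neither gene a value, because their peaks stood in the G12D list only. The other alternatives share that selection. Depth limits WT 5 and WT 6, where member peaks rest on 0 to 155 reads.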

Other observations

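Peaks of the same gene did not always follow each other from tumour to tumour. Slc9a3 peak 1 (intron), Car1 peak 1 (exon) and Vil1 peak 4 (exon) had their 4 highest values in the same 4 batch 1 tumours, WT 2, WT 3, G12D 1 and G12D 2, whereas Slc9a3 peak 2 and Vil1 peak 6 did not. The pattern was noticed after the values were seen. The same 4 tumours were the highest 4 for 883 of 7527 tested peaks (11.73%), and of 279 sets of 4 tumours that occurred this was the second most frequent, so it is common among all peaks and not particular to these genes.

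The share of Slc9a3 reads that fell in intronic peak 1 ranged from 0 to 76.28% of the gene's peak reads, with a median of 9.259%. For Car1, peak 1 made up 18.45 to 100% of the reads. For Vil1, peak 6 stayed between 53.35 and 69.98% in all 12 tumours, WT 5 and WT 6 included.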
